A study of Mus musculus with 119 samples.

Results

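Ifnb1, the single mouse gene of interferon β (IFN-β), was followed across every genotype, inhibitor and LPS time of an RNA-seq series of bone marrow-derived macrophages (BMDMs). It was selected by name, as 1 of the 18098 genes in the table, and it had a value in every library. In the mm10 (GRCm38) assembly the gene lies on the minus strand of chromosome 4 from 88522025 to 88522774 (GENCODE vM21), in 1 exon without introns, with its coding sequence from 88522229 to 88522774. The highest Ifnb1 levels of the series were found after 1 h of LPS in Nfkb1[SS/AA] cells and in cells given PD0325901, and in cells given RSKi47 the level was highest at 2 h.

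All cells were BMDMs of the C57BL/6(NIMR) strain, cultured for 7 days in L-cell conditioned medium, and LPS was used at 100 ng/ml for 0.5, 1 or 2 h. WT cells gave 22 libraries (6 without LPS, 6 each at 0.5 and 1 h, and 4 at 2 h), and Map3k8[D270A] cells, whose TPL-2 kinase is catalytically inactive, gave 24 (6 at each of these times). Elk1-/-Elk4-/- cells, which lack a pair of ternary complex factors (TCFs), gave 16 libraries (4 at each time), and Nfkb1[SS/AA] cells, in which serines of the NF-κB1 p105 protein that IKK phosphorylates are replaced by alanine, gave 18 (6 each without LPS and at 0.5 and 1 h). The MKK1/2 inhibitor PD0325901 (0.1 µM) was given to WT cells alone for 10, 40 or 70 min (3 libraries each) or for 10 min before LPS for 0.5 or 1 h (6 each), the solvent DMSO was given for 10 min (3), and the RSK1/2 inhibitor RSKi47 (2 µM) was given for 10 min alone (4) or before LPS for 0.5, 1 and 2 h (3, 4 and 4). The WT libraries carry the same experiment label as the Map3k8[D270A] libraries, whereas the Elk1-/-Elk4-/-, Nfkb1[SS/AA], PD0325901 with DMSO, and RSKi47 libraries each carry a label of their own without WT libraries given LPS alone. In those 4 experiments the block and the experiment cannot be told apart, and no library combined DMSO with LPS.

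Macrophages make IFN-β when LPS engages TLR4 and the adaptor TRIF leads to phosphorylation of IRF3, which acts with NF-κB and with ATF2/JUN proteins at a compact enhancer just upstream of Ifnb1. Secreted IFN-β binds the receptor IFNAR and, through JAK1, TYK2, STAT2 and IRF9, switches on interferon-stimulated genes. In resting cells TPL-2 is held by p105, and IKK phosphorylation of p105 frees it to activate MKK1/2 and then ERK1/2, which act on RSK kinases and on TCFs that drive Fos. The question asked of Ifnb1 was how a block at each of these steps changed its LPS response.

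The upstream stretch of Ifnb1 is shown because NF-κB and IRF proteins, whose binding motifs lie in it, are the known activators of the gene. It spans chr4:88522865-88523044 on the minus strand of GRCm38.p6, from 250 to 71 bases before the RefSeq start (RefSeq sequence), and capitals mark the letters of the motifs searched.
Ifnb1 upstream: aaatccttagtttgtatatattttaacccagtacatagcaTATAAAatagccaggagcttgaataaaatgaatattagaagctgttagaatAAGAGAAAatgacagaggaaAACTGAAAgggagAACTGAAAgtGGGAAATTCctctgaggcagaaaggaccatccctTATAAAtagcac
The IRF core AANNGAAA occurred 3 times, beginning 159, 139 and 126 bases before the start, and 21.3% of 32851 promoter windows of the same 250 bases held it on either strand. The NF-κB motif GGGANNTTC occurred 1 time, from 116 to 108 bases before the start and just after the last IRF core, and was held by 3.23% of the windows. The TATA motif TATAAA occurred 2 times, beginning 210 and 82 bases before the start (12.4% of windows), and neither the AP-1 motif TGANTCA (6.75% of windows) nor the CRE motif TGACGTCA (1.55%) was present in the window. A match is a description of letters and not of binding. Only these exact letters were searched, so ATF2/JUN sites spelled otherwise were not looked for.

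Levels are the deposited log2 values, which the authors had already normalized. No counts stand behind them here, and the study's methods give only a typical read yield. The depth of each library is therefore unknown, and differences are given on this log2 scale without conversion to a fold. Library medians over all genes lay between 9.03 and 9.09. The 7 macrophage markers examined were high throughout, among them Csf1r. Signal of neutrophil markers (S100a8 and S100a9 above all of a list of 6) stood apart in Elk1-/-Elk4-/- libraries, where the summed list reached 9.30 to 10.3, against 5.74 to 7.23 in WT, 5.59 to 7.07 in Map3k8[D270A], 6.17 to 7.77 in Nfkb1[SS/AA], 6.66 to 8.14 with PD0325901 and 6.46 to 7.76 with RSKi47, and its part in the results was not tested. Of 6 listed markers of plasmacytoid dendritic cells, which make type I interferon, Siglech stayed between 1.12 and 2.36, Bst2 and Tcf4 were high throughout (11.3 to 13.1 and 10.2 to 11.5), and the summed list was 12.7 to 13.4 in Elk1-/-Elk4-/- libraries against 12.4 to 12.8 in WT, and its highest library also lay above the WT range in the other arms, at 13.08 in Nfkb1[SS/AA], 13.02 with RSKi47, 13.00 in Map3k8[D270A] and 12.97 with PD0325901. Bst2, which leads this sum, is also on the list of interferon-stimulated genes used below, so the sum does not by itself mark these cells. The sum of 4 fibroblast and stromal markers, led by Col1a1 (up to 9.03), reached 4.54 to 9.05 with RSKi47 at 10 min and 4.13 to 5.62 with RSKi47 and LPS, against 3.48 to 4.25 in all other groups, and the part of these cells in the RSKi47 and Elk1-/-Elk4-/- results was not tested. In Elk1-/-Elk4-/- cells the difference from WT over the 4 times was between -3.07 and -2.78 for Elk1 and between -2.47 and -2.01 for Elk4, whereas the point mutations in Map3k8 and Nfkb1 cannot be checked by the amount of their mRNA.

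Some libraries stood apart from their groups. The root mean square distance of a library from its group's median, over all genes tested, ran from 0.0637 to 0.281 with a median of 0.119, and was 0.281 in Nfkb1[SS/AA] replicate 2 at 1 h, 0.211 in Map3k8[D270A] replicate 4 at 2 h and 0.198 to 0.261 in the 3 libraries of RSKi47 replicate 4. RSKi47 replicate 1 at 1 h had the highest Fos and Il10 of its group (see the values of these genes). Among the PD0325901 libraries with LPS, replicates whose numbers differ by 3 (1 and 4, 2 and 5, 3 and 6) were closer to each other, with root mean square differences of 0.117 to 0.131 at 1 h against 0.128 to 0.163 for all other pairs, and their Ifnb1 values differed by 0.08 to 0.27, against 0.01 to 1.98 for the other pairs. The 6 replicates may therefore hold fewer than 6 separate cultures, and with these pairs averaged no Ifnb1 call of PD0325901 changed. Where nothing shows that replicates came from separate animals, p-values measure only the spread between libraries.

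Without LPS, Ifnb1 was low in every group. The 38 libraries without LPS lay between 4.44 and 5.10, with a median of 4.77. In WT cells the lowest, median and highest levels were 4.44, 4.61 and 4.74 (n = 6), and in Nfkb1[SS/AA] cells they were 4.84, 4.94 and 4.99 (n = 6). The 4 libraries given RSKi47 for 10 min read 4.84, 4.85, 4.90 and 4.93. The Nfkb1[SS/AA] and RSKi47 libraries thus all lay above the WT libraries, by 0.31 ± 0.25 (SE) and 0.27 ± 0.28, and did not pass limma's test (Benjamini-Hochberg adjusted p = 0.354 and 0.429, where 32.0% and 53.0% of genes were called in either direction). An exact permutation test of these single values, two-sided, gave p = 0.00216 and 0.00952 (adjusted over 18 such comparisons 0.00779 and 0.0171). The limma error is shared by all groups and is wide for these resting ones, whose SD was 0.11 in WT, 0.06 in Nfkb1[SS/AA] and 0.04 with RSKi47. Of genes of similar level, 8.41% of the 559 genes whose mean in resting WT cells lay within 0.5 of that of Ifnb1 were raised as much or more in Nfkb1[SS/AA] cells, and 25.8% with RSKi47.

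With the inhibitor PD0325901 alone, Ifnb1 lay near its resting level. The 3 libraries read 4.77, 4.75 and 4.68 at 10 min, 4.78, 4.78 and 4.80 at 40 min, and 4.84, 4.83 and 4.99 at 70 min, and the DMSO libraries read 4.76, 4.69 and 4.71. The levels at 10 min overlapped those with DMSO, and the difference was 0.01, with a 95% interval from -0.68 to 0.71 (limma adjusted p = 1.00). From 10 to 70 min the level differed by 0.15 (limma adjusted p = 0.900). Resting Elk1-/-Elk4-/- cells read 4.61, 5.05, 5.10 and 4.56, and overlapped the WT libraries.

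**Figure D1:**
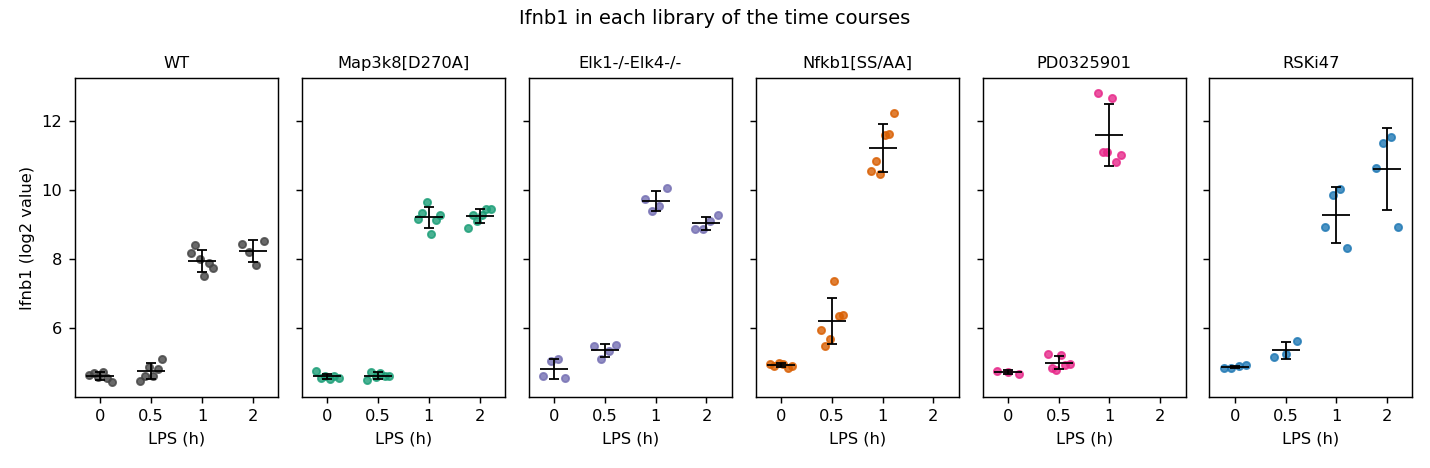
Ifnb1 level (deposited log2 value, vertical axis) in each library of the time courses by LPS time (h, horizontal axis) in 6 panels, WT and the 5 blocks. Points are libraries, bars the mean ± SD, and time 0 of the inhibitor panels is the inhibitor alone for 10 min. DMSO and PD0325901 alone for 40 or 70 min are not drawn. Resting libraries lie between 4.44 and 5.10 in all panels, and at 1 h the panels of Nfkb1[SS/AA] and PD0325901 reach 12.2 and 12.8.

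At 0.5 h of LPS, the rise of Ifnb1 over rest passed limma's test in 1 of the 6 arms, Nfkb1[SS/AA]. WT libraries read 4.48, 4.72 and 5.12 as lowest, median and highest (n = 6), whereas Nfkb1[SS/AA] libraries read 5.96, 5.49, 5.69, 7.35, 6.35 and 6.38. Every Nfkb1[SS/AA] library at 0.5 h lay above every WT library and above every library of the series without LPS. The difference from WT was 1.45 ± 0.25 (95% interval 0.96 to 1.94, limma adjusted p = 1.42e-06), the 8th largest increase of 11971 genes tested, of which 16.7% were called higher. The rise over rest within Nfkb1[SS/AA] cells was 1.28 ± 0.25 (limma adjusted p = 3.72e-05, with 8.55% of genes called higher), and it exceeded the WT rise by 1.14 ± 0.35, which did not pass (limma adjusted p = 0.298).

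PD0325901 libraries at 0.5 h read 5.25, 4.86, 4.80, 5.22, 4.95 and 4.97, overlapping WT. The difference of 0.25 ± 0.25 had a 95% interval from -0.24 to 0.74 (limma adjusted p = 0.470, with 14.5% of genes called higher). The 3 RSKi47 libraries read 5.16, 5.26 and 5.64, just above the highest WT library, with a difference of 0.60 ± 0.30 that did not pass limma's test (adjusted p = 0.0921, with 23.7% of genes called higher), while the exact two-sided permutation test gave p = 0.0119, the smallest possible for 3 against 6. The Elk1-/-Elk4-/- libraries read 5.49, 5.11, 5.33 and 5.52, touching the WT range at 5.11 against 5.12, with a difference of 0.61 ± 0.28 (limma adjusted p = 0.0617, with 23.5% of genes called higher, and exact two-sided permutation p = 0.00952). Map3k8[D270A] libraries lay between 4.50 and 4.74 and overlapped WT (difference -0.12, limma adjusted p = 0.900).

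At 1 h, every block gave a higher Ifnb1 level than WT. WT libraries read 8.18, 8.40, 8.0, 7.51, 7.89 and 7.74, a mean of 7.95 ± 0.32 (SD, n = 6). With PD0325901 they read 12.80, 11.09, 11.08, 12.65, 10.82 and 11.01 (11.57 ± 0.90), and in Nfkb1[SS/AA] cells 10.55, 10.84, 10.44, 11.57, 11.61 and 12.22 (11.21 ± 0.70). Neither group overlapped WT, and the lowest library of either stood more than 2 log2 units above the highest WT library. The PD0325901 values fell into an upper pair, replicates 1 and 4, and 4 libraries near 11.

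The difference from WT at 1 h was 3.62 ± 0.25 with PD0325901 (95% interval 3.13 to 4.11, limma adjusted p = 3.78e-23), the largest increase of the 11971 genes tested, of which 16.4% were called higher. Averaging the close pairs of replicates left it at 3.62 (limma adjusted p = 6.17e-18). In Nfkb1[SS/AA] cells the difference was 3.26 ± 0.25 (95% interval 2.76 to 3.75, limma adjusted p = 5.68e-21), the 2nd largest increase, with 20.5% of genes called higher. It was 3.33 without replicate 2. The exact permutation p was 0.00216 for each block, two-sided, the smallest possible with 6 against 6 libraries.

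The other blocks gave smaller increases at 1 h. RSKi47 libraries read 8.92, 9.85, 10.03 and 8.31 (9.28 ± 0.81, SD, n = 4), and replicate 4, the lowest, lay inside the WT range. The difference was 1.33 ± 0.28 (95% interval 0.78 to 1.87, limma adjusted p = 3.10e-05, with 26.5% of genes called higher) and 1.65 without replicate 4. Map3k8[D270A] libraries read 9.16, 9.32, 9.63, 8.72, 9.13 and 9.27, all above WT, a difference of 1.25 ± 0.25 (limma adjusted p = 8.9e-05) that was the 5th largest increase in a comparison where 5.87% of genes were called higher. Elk1-/-Elk4-/- libraries read 9.73, 9.40, 9.54 and 10.05, all above WT as well, a difference of 1.73 ± 0.28 (limma adjusted p = 1.16e-07) that was the 23rd largest increase, where 28.3% of genes were called higher.

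At 2 h, measured in 4 of the arms, the mean level was highest with RSKi47. WT libraries read 8.43, 8.19, 7.81 and 8.51, and RSKi47 libraries read 10.62, 11.36, 11.52 and 8.92. All RSKi47 libraries lay above WT, replicate 4 by the least. The difference was 2.37 ± 0.30 (95% interval 1.77 to 2.97, limma adjusted p = 1.23e-10), the 7th largest increase where 27.5% of genes were called higher, and 2.93 without replicate 4. The limma error is shared by all groups and is narrow for the RSKi47 libraries, whose SD was 1.19. Over the alternatives the highest limma adjusted p was 0.00633. The exact two-sided permutation p was 0.0286, the smallest that 4 against 4 libraries allow.

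The Map3k8[D270A] libraries at 2 h read 8.91, 9.28, 9.10, 9.27, 9.44 and 9.45, and those of Elk1-/-Elk4-/- cells 8.86, 8.86, 9.11 and 9.27. None overlapped WT. The differences were 1.00 ± 0.28 (limma adjusted p = 0.00298, with 15.3% of genes called higher) and 0.79 ± 0.30 (limma adjusted p = 0.0225, with 28.7% called higher). The latter was lost without WT replicate 6 (0.65) or without Elk1-/-Elk4-/- replicate 4 (0.71). PD0325901 and Nfkb1[SS/AA] cells had no libraries at 2 h.

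**Figure D2:**
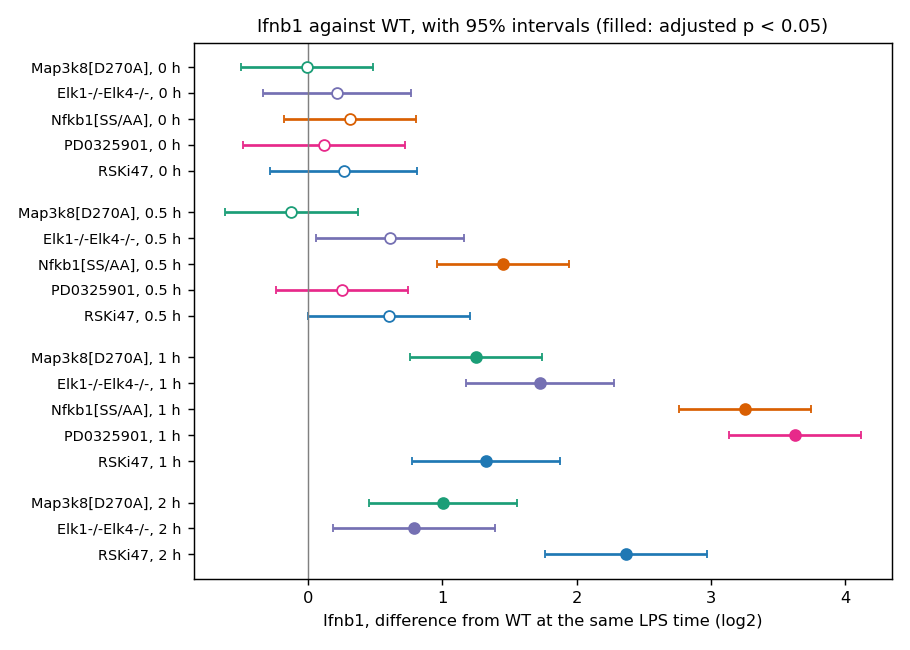
Difference of Ifnb1 from WT (log2, horizontal axis) with its 95% interval for each block and LPS time. Filled points have an adjusted p below 0.05 in limma, and the intervals are not adjusted. The points at 1 h of PD0325901 (3.62) and Nfkb1[SS/AA] (3.26) lie farthest right, followed by RSKi47 at 2 h (2.37).

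The change from 1 to 2 h was compared with that of WT in each arm measured at 2 h. No difference passed limma's test with all groups in 1 fit. In WT cells the level was 0.28 higher at 2 h than at 1 h, which did not pass (limma adjusted p = 0.371), and in Map3k8[D270A] cells it was 0.03 higher (0.914). In RSKi47-treated cells the level rose by 1.33 ± 0.30 from 1 to 2 h (limma adjusted p = 9.65e-05, with 29.3% of genes called higher), a call lost when only the libraries of these groups were fitted (adjusted p = 0.108), and each of the 4 replicates was higher at 2 h, from 8.92 to 10.62, 9.85 to 11.36, 10.03 to 11.52 and 8.31 to 8.92. This rise exceeded the WT change by 1.05 ± 0.41, which did not pass (limma adjusted p = 0.0732), although it did with the replicate number as a block (1.05, adjusted p = 0.0195), as it also did without RSKi47 replicate 4 (1.28) or without WT replicate 7 (1.23). In Elk1-/-Elk4-/- cells all libraries at 2 h lay below those at 1 h, a difference of -0.65 ± 0.30 (limma adjusted p = 0.0536, with 27.6% of genes called lower), and its difference from the WT change was -0.94 ± 0.41 (limma adjusted p = 0.125). The former passed in 4 of 12 alternatives and the latter in 4 of 18. The replicate block was among them, although replicate numbers did not pair the 1 and 2 h libraries of this arm.

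The LPS response, the level after LPS minus the resting level of the same arm, placed Ifnb1 at the top of the gene list in both strong blocks. In WT cells Ifnb1 rose by 3.34 ± 0.25 at 1 h (the 39th largest rise, with 24.3% of genes called higher) and by 3.62 ± 0.28 at 2 h (the 82nd, 34.9%). In Nfkb1[SS/AA] cells it rose by 6.28 ± 0.25 at 1 h (limma adjusted p = 1.82e-42, 22.5%), and with PD0325901 by 6.84 ± 0.30 over the inhibitor at 10 min (3.30e-38, 20.4%) and by 6.69 ± 0.30 over the inhibitor at 70 min (1.71e-37, 21.9%). In both arms no gene of the 11971 rose more. The rise at 1 h was 4.60 in Map3k8[D270A] (the 9th largest, with 22.5% of genes called higher), 4.85 in Elk1-/-Elk4-/- (the 6th, 17.1%) and 4.40 with RSKi47 (the 10th, 15.0%). At 2 h it was 5.73 ± 0.30 with RSKi47, the 8th largest in a comparison where 32.5% of genes were called higher.

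**Figure D3:**
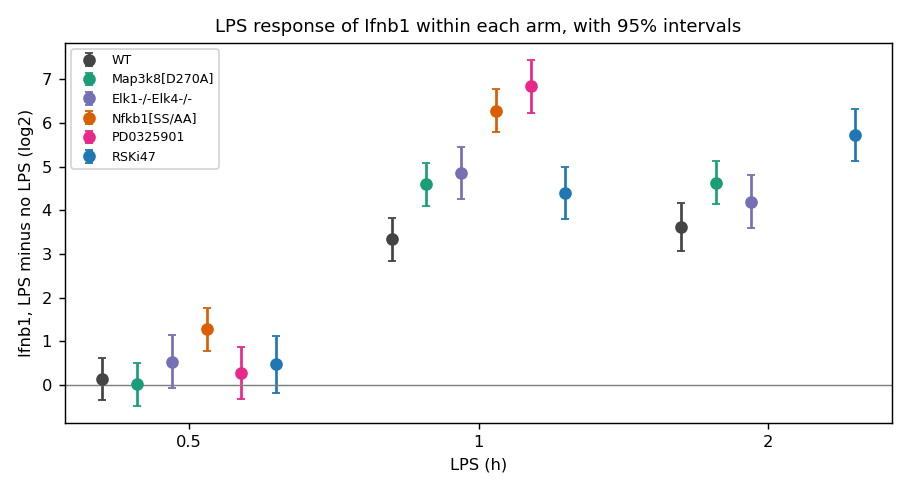
LPS response of Ifnb1 (level after LPS minus resting level of the same arm, log2, vertical axis) by LPS time (h, horizontal axis) in each arm, with 95% intervals. At 0.5 h the Nfkb1[SS/AA] response (1.28) stands above the others, and at 1 h PD0325901 (6.84) and Nfkb1[SS/AA] (6.28) stand above the other arms, with WT lowest (3.34).

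The gain in response, the response of an arm minus that of WT, was 3.50 ± 0.39 with PD0325901 at 1 h (95% interval 2.73 to 4.28, limma adjusted p = 2.55e-11, and 5.92e-10 with the close pairs of replicates averaged), in a comparison where 1.01% of genes were called higher. In Nfkb1[SS/AA] cells it was 2.94 ± 0.35 (95% interval 2.25 to 3.64, limma adjusted p = 1.06e-10, with 1.77% called higher). In Map3k8[D270A] cells it was 1.26 ± 0.35 (limma adjusted p = 0.0271, 0.835%). Of all genes tested Ifnb1 had the largest gain in these 3 blocks, and it kept that rank with no filter on low values, with libraries centred to the same median and with quantile normalization. The Map3k8[D270A] gain lost its call when WT replicates 6 or 7 (1.28, 1.15) or Map3k8[D270A] replicates 2, 3, 5 or 6 (1.23, 1.18, 1.27, 1.24) were left out.

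In Elk1-/-Elk4-/- cells the gain at 1 h was 1.51 ± 0.39 (limma adjusted p = 0.0190, with 0.476% called higher), the 2nd largest, and the gene above it, Rps27, was at 1.97 ± 0.96 and did not pass (0.599). This call was lost without WT replicate 7 (1.40) or without Elk1-/-Elk4-/- replicates 1 (1.42) or 4 (1.30). With RSKi47 the gain was 1.06 ± 0.39 at 1 h (limma adjusted p = 0.100, with 2.26% called higher), which passed with the replicate number as a block (1.06, adjusted p = 0.0237) and without replicate 4 (1.40, adjusted p = 0.0115). At 2 h it was 2.10 ± 0.41 (95% interval 1.29 to 2.92, limma adjusted p = 3.96e-05, with 10.6% called higher), the 2nd largest gain after the histocompatibility gene H2-Q6 (2.69 ± 0.89, 0.0201). At 2 h the gain was 1.01 ± 0.37 in Map3k8[D270A] (limma adjusted p = 0.0464, 7.73%), which lost its call when any of 5 WT or of 5 Map3k8[D270A] replicates was left out, and 0.58 ± 0.41 in Elk1-/-Elk4-/- (0.366), which did not pass. All gains subtract the same WT libraries, so they are not independent of each other.

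**Figure D4:**
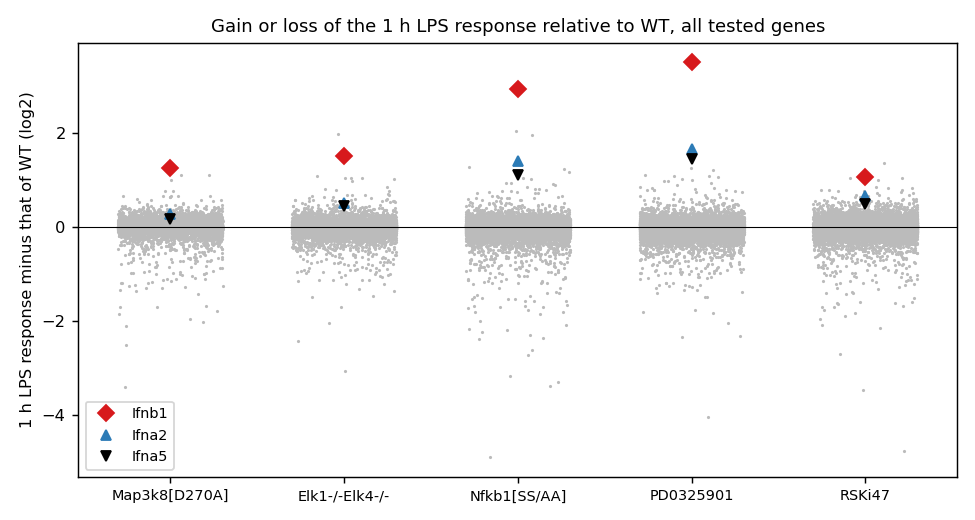
Gain in the 1 h LPS response over WT (log2, vertical axis) for each of 11971 genes tested, 1 column for each block (horizontal axis). Grey points are genes, the diamond is Ifnb1, and the upward and downward triangles are Ifna2 and Ifna5. Ifnb1 is the highest point in the columns of PD0325901 (3.50), Nfkb1[SS/AA] (2.94) and Map3k8[D270A] (1.26), and every column subtracts the same WT response.

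Among the blocks themselves, PD0325901 and Nfkb1[SS/AA] overlapped at 1 h. The Nfkb1[SS/AA] level minus the PD0325901 level was -0.37 (95% interval -0.86 to 0.12, limma adjusted p = 0.258), an interval that leaves room for a difference of most of a log2 unit. At 0.5 h the Nfkb1[SS/AA] level was higher by 1.2 (limma adjusted p = 9.02e-05, with 15.0% of genes called higher), with no overlap. PD0325901 exceeded Map3k8[D270A] by 2.37 ± 0.25 at 1 h (limma adjusted p = 2.06e-13, 18.5%), and Nfkb1[SS/AA] exceeded it by 2.00 (5.77e-11, 22.7%). These comparisons do not use the WT libraries, but each sets libraries of separate experiments against each other.

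The inhibitors PD0325901, which acts on MKK1/2, and RSKi47, which acts on RSK1/2, were compared at the LPS times they share, 2 pairs in all. At 0.5 h RSKi47 minus PD0325901 was 0.35 (limma adjusted p = 0.349), and at 1 h it was -2.30 ± 0.28 (limma adjusted p = 1.35e-11, with 25.3% of genes called lower), with every RSKi47 library below every PD0325901 library. The level with RSKi47 at 2 h (10.61 ± 1.19, SD, n = 4) and that with PD0325901 at 1 h (11.57 ± 0.90, SD, n = 6) are of different times and are given side by side. At 2 h RSKi47 stood above Map3k8[D270A] by 1.37 (limma adjusted p = 1.87e-05, with 26.5% called higher), overlapping in replicate 4, and above Elk1-/-Elk4-/- by 1.58 (5.35e-06, 27.3%). The Elk1-/-Elk4-/- and Map3k8[D270A] levels differed by 0.47 at 1 h (95% interval -0.07 to 1.02, limma adjusted p = 0.141) and by -0.21 at 2 h (-0.76 to 0.34; 0.541).

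Ordered by mean, the 25 groups ran from 4.61 in resting Map3k8[D270A] cells to 11.57 with PD0325901 at 1 h. The first 14 groups, the resting ones and those at 0.5 h other than Nfkb1[SS/AA], reached only 5.36, and Nfkb1[SS/AA] at 0.5 h came 15th at 6.20. Then came WT at 1 and 2 h (7.95 and 8.24), Elk1-/-Elk4-/- at 2 h (9.03), Map3k8[D270A] at 1 and 2 h (9.21 and 9.24), RSKi47 at 1 h (9.28), Elk1-/-Elk4-/- at 1 h (9.68), RSKi47 at 2 h (10.61), Nfkb1[SS/AA] at 1 h (11.21) and PD0325901 at 1 h. Neighbours in this order overlapped in their libraries except at 2 steps, from Nfkb1[SS/AA] at 0.5 h to WT at 1 h and from WT at 2 h to Elk1-/-Elk4-/- at 2 h.

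The spread within a block was itself uneven. The SD of Ifnb1 was 0.32 or less in the WT, Map3k8[D270A] and Elk1-/-Elk4-/- groups, and 0.66 to 1.19 in Nfkb1[SS/AA] at 0.5 and 1 h, PD0325901 at 1 h and RSKi47 at 1 and 2 h. The shared limma error is narrow for the groups of wide spread, so their intervals and p-values overstate precision. Against WT at 1 h, the highest limma adjusted p over the alternatives was 1.06e-05 with PD0325901 and 3.29e-06 in Nfkb1[SS/AA]. Nfkb1[SS/AA] replicates 1 to 3 had means of 5.71 at 0.5 h and 10.61 at 1 h, and replicates 4 to 6 had 6.69 and 11.80, with no overlap between these sets at either time. Against WT the increase at 1 h was 2.66 with replicates 1 to 3 (limma adjusted p = 2.48e-13) and 3.85 with replicates 4 to 6, and at 0.5 h it was 0.96 (0.00692) and 1.94. At rest the sets had means of 4.95 and 4.90.

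The other type I interferon genes, which signal through the same receptor, were near the bottom of the scale. Of 18 listed genes 15 were in the table and 3 passed the filter on low values, Ifnb1, Ifna2 and Ifna5. Ifna2 and Ifna5 passed it only through libraries of PD0325901 at 1 h, Nfkb1[SS/AA] at 1 h and RSKi47 at 2 h, so their differences are given as a description, with no test. Ifna2 lay between 1.39 and 1.58 in the 38 libraries without LPS and between 1.42 and 1.66 in WT cells at 1 h. With PD0325901 at 1 h the 6 libraries read 3.57, 3.19, 3.15, 3.43, 3.09 and 3.05, and in Nfkb1[SS/AA] cells 2.82, 2.35, 2.21, 4.03, 3.34 and 3.51. Replicates 1 and 4 of PD0325901 and replicates 4 to 6 of Nfkb1[SS/AA], the highest for Ifnb1, were also the highest for Ifna2.

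Against WT at 1 h, the difference of Ifna2 was 1.69 with PD0325901 and 1.49 in Nfkb1[SS/AA], and that of Ifna5 was 1.47 and 1.2. With RSKi47 at 2 h the differences were 1.40 and 1.5. The differences at 1 h were 0.73 and 0.56 with RSKi47, 0.58 and 0.51 in Elk1-/-Elk4-/-, and 0.26 and 0.17 in Map3k8[D270A]. At 2 h, RSKi47 replicate 4 was again lowest, with Ifna2 at 1.80 against 2.96, 3.41 and 3.37 in the others. In WT cells the LPS responses at 1 h were 0.12 and 0.14. All 6 PD0325901 libraries at 1 h also exceeded every resting library in Ifna1, Ifna4, Ifna6 and Ifna9, and all 6 Nfkb1[SS/AA] libraries did in Ifna1, Ifna4 and Ifna6. Ifna4 also exceeded every resting library in all 6 Map3k8[D270A] and all 4 Elk1-/-Elk4-/- and RSKi47 libraries at 1 h, and so did Ifna5, and Ifna2 in the 4 RSKi47 libraries. At 2 h all 4 Elk1-/-Elk4-/- libraries did in Ifna4 and Ifna5, and all 4 RSKi47 libraries in Ifna2, Ifna4, Ifna5, Ifna9 and Ifna14. These Ifna genes are near-identical copies whose reads the counting could divide among them, so their separate values are uncertain, and values this close to a gene's lowest level are not amounts.

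Of 12 genes of LPS sensing and the TRIF arm, at 1 h 2 were higher and 5 lower in Nfkb1[SS/AA] cells (median -0.11, against -0.01 over all genes, with 20.5% of genes called higher, near the count of 2, and 21.9% lower), and with PD0325901 limma called 0 higher (0 at an unadjusted p below 0.05) and 4 lower (median -0.08, with 16.4% of genes called higher and 19.3% lower). Irf3, the transcription factor that TRIF signalling activates, differed from WT by -0.56 ± 0.04 with PD0325901 (limma adjusted p = 1.93e-19) and by -0.48 in Nfkb1[SS/AA] (1.14e-16). Ticam1, which encodes TRIF, was higher by 0.43 in Nfkb1[SS/AA] (1.06e-12). With RSKi47 at 2 h 1 was higher and 3 lower, the latter near the share over all genes (27.5% called higher and 24.6% lower), among them the LPS co-receptor Cd14 at -0.75 and the kinase gene Ikbke at -0.57.

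The 9 genes of enhanceosome factors and coactivators gave 0 higher and 2 lower in Nfkb1[SS/AA] and 0 higher and 3 lower with PD0325901 at 1 h in limma (0 and 1 higher at an unadjusted p below 0.05), where 21.9% and 19.3% of all genes were called lower and 20.5% and 16.4% higher, so the 2 lower in Nfkb1[SS/AA] are near the share over all genes. With RSKi47, 6 were higher and 2 lower at 0.5 h (23.7% and 24.5% of all genes) and 2 were higher and 1 lower at 2 h (27.5% and 24.6%). The architectural factor Hmga1 was lower at 2 h, with a difference of -1.55 ± 0.09 (limma adjusted p = 5.84e-27), and the coactivator Crebbp was higher at 0.5 h by 0.89 (7.50e-14). Of 8 IRF genes tested, 1 was higher and 4 lower in Nfkb1[SS/AA] at 1 h (20.5% and 21.9% of all genes), and 2 were higher and 2 lower with PD0325901 (16.4% and 19.3%), the latter near the share over all genes. Irf1 was higher in Nfkb1[SS/AA] at 0.5 h by 0.69 (limma adjusted p = 1.26e-09), Irf4 with RSKi47 at 1 h was at -0.75 ± 0.11, and Irf7, an interferon-inducible activator of Ifna genes, was higher with RSKi47 at 0.5 h by 0.82 ± 0.27 (0.0100).

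Most FOS, JUN and IL-10 genes were called lower than in WT at 1 h with PD0325901 and in Nfkb1[SS/AA], the arms with the highest Ifnb1. With PD0325901 7 of the 8 were lower than in WT at 0.5 h (15.0% of genes were called lower) and 8 of 8 at 1 h (19.3% called lower, median -0.73, against -0.01 over all genes). In Nfkb1[SS/AA] cells 3 were lower at 0.5 h (15.6% called lower) and 6 at 1 h (21.9% called lower, median -1.03). Fos in WT cells had a median of 13.86 at 0.5 h and 11.55 at 1 h, and with PD0325901 12.51 and 10.07. The difference was -1.35 at 0.5 h (limma adjusted p = 4.60e-19) and -1.44 at 1 h (6.13e-21). In Nfkb1[SS/AA] cells the Fos differences were -1.28 and -1.62 ± 0.11 (limma adjusted p = 1.39e-24 at 1 h), and no library overlapped WT.

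With RSKi47 at 1 h, Fos was not called lower than in WT. The 4 libraries read 12.67, 11.50, 11.41 and 11.35, overlapping the WT range of 11.17 to 11.85 except for replicate 1. The Fos difference from WT was -0.81 at 0.5 h (limma adjusted p = 1.85e-07). It was 0.20 at 1 h (limma adjusted p = 0.155), -0.11 without replicate 1 and 0.33 without replicate 4 (0.0253, called higher). At 2 h it was -0.38 (limma adjusted p = 0.0116), and -0.29 without replicate 4 (0.0643). Il10, which encodes the anti-inflammatory cytokine IL-10, was at -1.72 at 0.5 h and at -1.95 ± 0.24 at 2 h (limma adjusted p = 2.75e-11). At 1 h Il10 read 10.56, 8.02, 8.06 and 7.16, replicate 1 lying above all WT libraries, and the difference from WT was -1.33 with it and -2.04 without it. Without replicate 4 the Il10 difference at 1 h was -0.90 (limma adjusted p = 1.54e-04). Of the 8 genes 4 were lower and 2 higher with RSKi47 at 1 h (26.3% and 26.5% of all genes, the latter near the count of 2), 2 were lower without replicate 4, near the share over all genes, and 6 were lower at 2 h (24.6%).

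The other blocks showed further combinations of Ifnb1 with Fos and Il10. In Map3k8[D270A] cells the Fos difference was -1.04 at 0.5 h and -1.16 at 1 h, and Il10 was at -2.57 at 2 h, with a mean of 6.87 against 9.44 in WT. In Elk1-/-Elk4-/- cells Fos differed by -0.82 at 0.5 h and by -0.24 at 1 h (limma adjusted p = 0.0773), while Il10 was higher by 0.91 at 0.5 h (3.79e-04) and differed by 0.01 at 1 h. With PD0325901 and no LPS, the mean Fos level was 10.75 at 10 min, 9.43 at 40 min and 9.12 at 70 min, times at which the highest Ifnb1 level was 4.99.

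**Figure D5:**
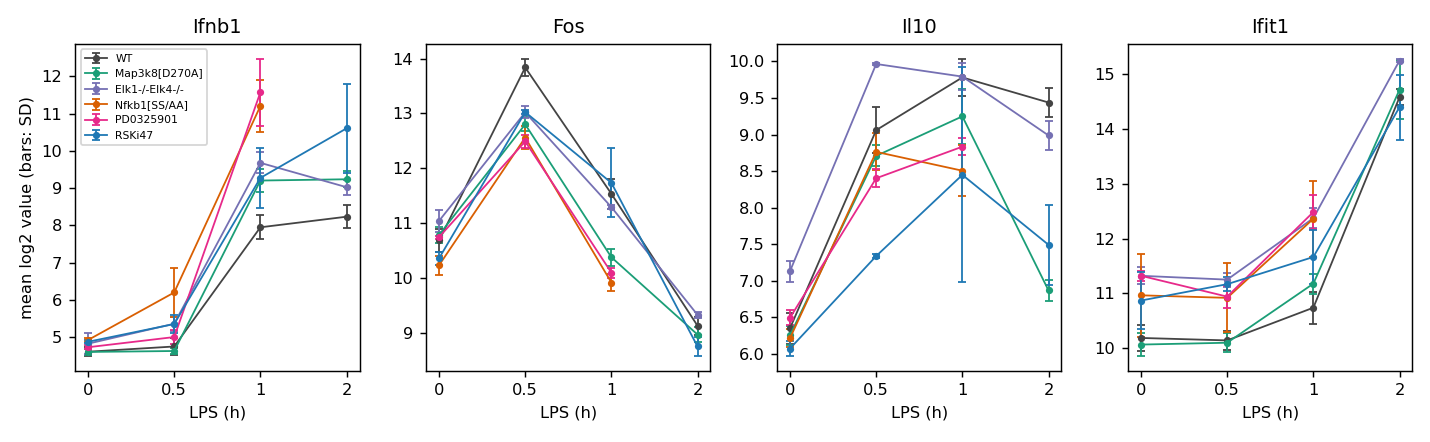
Mean ± SD level (log2, vertical axis) of Ifnb1, Fos, Il10 and Ifit1 by LPS time (h, horizontal axis), 1 line for each arm. At 1 h Ifnb1 is highest and Fos lowest with PD0325901 and in Nfkb1[SS/AA], whereas with RSKi47 Fos (mean 11.74) is close to WT (11.54), and Ifit1 lines differ between arms already at rest.

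Genes of the interferon receptor and the JAK-STAT pathway, 10 in all, gave 3 higher and 4 lower in Nfkb1[SS/AA] at 1 h (20.5% and 21.9% of all genes), 4 higher and 3 lower with PD0325901 at 1 h (16.4% and 19.3%), and 1 higher and 4 lower with RSKi47 at 2 h (27.5% and 24.6%). Socs3, an inhibitor of cytokine signalling, differed in Nfkb1[SS/AA] at 1 h by -1.04 ± 0.09 (limma adjusted p = 4.95e-17). With RSKi47 at 0.5 h 6 were higher, among them Stat2 by 0.99 and Socs1 by 0.95 (23.7% of genes were called higher).

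Interferon-stimulated genes, the downstream readout of IFN-β, were higher in many arms, and in most of these they were so before LPS. Of 30 genes tested, 27 were higher than in WT with PD0325901 at 1 h (median 0.69, with 16.4% of all genes called higher), 17 in Nfkb1[SS/AA] at 1 h (median 0.48, 20.5%) and 19 with RSKi47 at 1 h (median 0.54, 26.5%). At rest 27 were higher with PD0325901 at 10 min (13.6% of genes were called higher), 25 with DMSO at 10 min (12.5%), 27 in Elk1-/-Elk4-/- (28.3%), 15 in Nfkb1[SS/AA] (16.9%), 17 with RSKi47 (26.8%) and in limma 0 in Map3k8[D270A] (0.860%, and 0 at an unadjusted p below 0.05). Among the antiviral IFIT genes, Ifit2 was higher with PD0325901 at 1 h by 1.91 ± 0.28, Ifit1 by 1.74 ± 0.22 and Ifit3 by 1.49 ± 0.27, and the chemokine gene Cxcl10 was higher in Nfkb1[SS/AA] at 1 h by 1.62 ± 0.19.

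Measured as the gain in LPS response over WT, which takes off the resting level, limma called 0 of the 30 interferon-stimulated genes higher at 1 h with PD0325901 (median -0.18), in Nfkb1[SS/AA] (0.06) or with RSKi47 (0.08), where the Ifnb1 gains were 3.50, 2.94 and 1.06. Only 1.01%, 1.77% and 2.26% of all genes were called higher in these comparisons, so counts of 0 are near the share over all genes. At an unadjusted p below 0.05 the counts were 0, 4 and 0. In WT cells 8 of the 30 were called higher after LPS at 1 h, near the 24.3% over all genes, and 28 at 2 h (median 2.09), where 34.9% of all genes were. With RSKi47 at 2 h, when Ifnb1 was 2.37 above WT, 2 of the 30 were higher and 1 lower (median 0.07, with 27.5% and 24.6% of all genes), and 11 were higher without replicate 4. The gain at 2 h was lower for 4 of them (median -0.47), near the 10.4% of all genes called lower, and in limma higher for 0 (0 at an unadjusted p below 0.05).

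Genes whose pattern over the 25 group means was most like that of Ifnb1 followed its time course rather than its size. By Pearson correlation over the 25 group means these included Ints12 (0.962), Sgms1 (0.951), Gprc5a (0.947), Vps37c (0.947) and Bcl2l11 (0.943), given as a description since the groups share arms and libraries. Over all libraries these 5 values were 0.951, 0.933, 0.906, 0.934 and 0.931. Ints12, the closest, differed from WT at 1 h by 0.23 with PD0325901 and by 0.29 in Nfkb1[SS/AA], and Sgms1 by 0.08 and 0.12, against 3.62 and 3.26 for Ifnb1.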

How the data were processed

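RNA-seq of mouse BMDM libraries was used as the deposited table of log2 values, 1 per gene and library. The submitters' processing notes name STAR 2.5.1b, RSEM 1.2.29, DESeq2 1.10.1 and mm10, and the study's methods give other STAR and RSEM versions. The sources used here do not say how the values were transformed to log2 and give only a typical read yield. The depth of each library is thus unknown, and no counting interval was computed. A single value above 25 (Fosb, RSKi47 replicate 1, 1 h) was set to missing. Groups came from the labels. Testing kept the 11971 of 18098 genes whose linear value reached 10 in 3 or more libraries, and ran with limma 3.58.1 in R 4.3.3, no trend, all 25 groups in 1 fit, with Benjamini-Hochberg adjustment over all genes and calls at an adjusted p below 0.05. Scripts were tested on simulated data. Ifnb1 against WT was also compared by exact permutation tests, two-sided (18 comparisons). Each list's named genes are the members with the largest differences from WT among called ones, in either direction, in Nfkb1[SS/AA], PD0325901 or RSKi47 cells, and other genes were named after their values were seen. A few genes are not reported here. Ifnb1 and the lists were chosen with earlier results of these data known. Replicate numbers paired libraries within an arm for 20 of 42 pairs of groups at different times (correlation of deviations above 0.1 for each number; among them all pairs of WT and Nfkb1[SS/AA] times, and RSKi47 at rest, 1 and 2 h), and for 1 of 54 pairs across arms. Alternatives covered left-out replicates, filter, centring, quantile normalization, trend, array weights, libraries fitted, replicate block, replicate subsets and averaged PD0325901 replicates.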

Additional observations from a re-analysis of the deposited data

Results flagged for a closer look

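In resting Map3k8[D270A] cells, Ifnb1 in replicate 1 (4.76) stood apart from the other 5 libraries, the gap to the nearest being 0.662 of the range of the group (n = 6). It was 1 of 20 groups tested, and chance marks about 1 in 20.

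The LPS response of Ifnb1 differed from that of WT by the test of the difference itself in 6 comparisons. The response was larger by 3.50 with PD0325901 at 1 h, by 2.94 in Nfkb1[SS/AA] cells at 1 h and by 2.10 with RSKi47 at 2 h. It was larger by 1.51 in Elk1-/-Elk4-/- cells at 1 h, and in Map3k8[D270A] cells by 1.26 at 1 h and 1.01 at 2 h. All subtract the same WT libraries, and all but the Map3k8[D270A] values set libraries of separate experiments against each other.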

How the results depend on the processing

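None of 1342 alternative values for Ifnb1 reversed a call, and in limma 1281 kept their direction and side of the threshold. The increase at 1 h stayed between 3.32 and 3.86 with PD0325901, between 2.66 and 3.85 in Nfkb1[SS/AA], between 1.17 and 1.35 in Map3k8[D270A] and between 1.49 and 1.97 in Elk1-/-Elk4-/- cells, and that with RSKi47 at 2 h between 2.07 and 2.93. The cause of the changes below was not tested, apart from the smaller number of libraries where libraries were left out. The unknown depth of each library, the unknown transformation, the separate experiments, and the near-lowest resting values limit all of these differences. A pseudocount was not tried because the values are already log2.

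The Map3k8[D270A] gain at 2 h lost its call with no filter (1.01) and with quantile normalization (0.92). With array weights the following passed: Elk1-/-Elk4-/- against WT at 0.5 h (0.70), RSKi47 against WT at 0.5 h (0.75), the gains of Nfkb1[SS/AA] at 0.5 h (1.19) and RSKi47 at 1 h (1.29), the change from 1 to 2 h in Elk1-/-Elk4-/- (-0.65), and its difference from WT in Elk1-/-Elk4-/- (-0.92) and with RSKi47 (1.18). With only the libraries of the groups compared, Elk1-/-Elk4-/- (0.61) and RSKi47 (0.60) at 0.5 h, resting Nfkb1[SS/AA] (0.31) and RSKi47 (0.27) passed against WT, as did PD0325901 against Map3k8[D270A] (0.37) and RSKi47 against PD0325901 (0.35) at 0.5 h, Elk1-/-Elk4-/- against Map3k8[D270A] at 1 h (0.47), the change from 1 to 2 h in Elk1-/-Elk4-/- (-0.65) and its difference from WT (-0.94), whereas the change from 1 to 2 h with RSKi47 (1.33) and RSKi47 against Nfkb1[SS/AA] at 0.5 h (-0.85) no longer passed. In the fit of WT, Map3k8[D270A] and Elk1-/-Elk4-/- libraries, Elk1-/-Elk4-/- passed against WT at 0.5 h (0.61), over rest at 0.5 h (0.54), against Map3k8[D270A] at 1 h (0.47), from 1 to 2 h (-0.65) and for that change less the WT change (-0.94). With the replicate number as a block, the RSKi47 gain at 1 h (1.06), the change from 1 to 2 h in Elk1-/-Elk4-/- (-0.65) and the differences of that change from WT in Elk1-/-Elk4-/- (-0.93) and with RSKi47 (1.05) passed, and no other call changed. With WT replicates 7 to 9 and Map3k8[D270A] replicates 4 to 6 alone, the increases at 2 h in Map3k8[D270A] (0.88) and Elk1-/-Elk4-/- (0.52) no longer passed, with 1 WT library left at 2 h that is assumed to vary like the other groups.

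Leaving out a replicate changed calls within these ranges: Map3k8[D270A] gains 1.15 to 1.35 at 1 h and 0.88 to 1.11 at 2 h, Elk1-/-Elk4-/- gain at 1 h 1.30 to 1.68 and level against WT 0.56 to 0.69 at 0.5 h and 0.65 to 0.88 at 2 h, Elk1-/-Elk4-/- against Map3k8[D270A] at 0.5 h 0.68 to 0.81, RSKi47 gain at 1 h 0.81 to 1.40, RSKi47 against Nfkb1[SS/AA] at 0.5 h -0.99 to -0.62, and the RSKi47 change from 1 to 2 h less that of WT 0.89 to 1.28. Without RSKi47 replicates 1 or 4, a choice made after seeing the data, FOS, JUN and IL-10 genes lower at 1 h numbered 3 and 2, and interferon-stimulated genes higher at 2 h numbered 2 and 11. When a call also needed a difference of at least 1, FOS, JUN and IL-10 genes lower numbered 2 and 3 with PD0325901 at 0.5 and 1 h, and 1, 2 and 2 with RSKi47 at 0.5, 1 and 2 h, where 0.192% to 1.1% of all genes were called lower in that way. Interferon-stimulated genes higher then numbered 1 and 6 in Nfkb1[SS/AA], 2 and 6 with PD0325901, and 8, 3 and 0 with RSKi47 (limma, with 0 at 2 h also at an unadjusted p below 0.05), where 0.217% to 0.977% of all genes were called higher. Of the 6 genes most like Ifnb1, 1 remained with Spearman correlation.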
